A study of Mus musculus with 6 samples.

Results

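The IL-17 family genes measured here are 4 cytokines (Il17a, Il17c, Il17d and Il17f), 5 receptor subunits (Il17ra, Il17rb, Il17rc, Il17rd and Il17re) and the adaptor Traf3ip2, which encodes Act1. These 10 genes were taken by symbol from the 40842 named genes of the deposited tables, and all 10 were found. Whole lung RNA came from 3 control libraries of untreated mice and 3 irradiated libraries of mice given 1 dose of 20 Gy of 9 MeV electrons, both at the 100 day time point. All mice were wild type C57BL/6N females, so sex, strain and genotype do not differ between the groups. Which body region was exposed is not in the labels, nor is it stated that each library is a different mouse. The p-values therefore reflect library-to-library spread only, some of which may be technical.

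IL-17A and IL-17F are secreted by γδ T cells, Th17 cells and other type 17 lymphocytes, and they act on epithelium, fibroblasts and myeloid cells through a receptor made of IL-17RA and IL-17RC. IL-17RA is also the shared chain for IL-17C, with IL-17RE as its partner, and for IL-25, with IL-17RB as its partner. Act1 binds the intracellular SEFIR domain that the receptors and the adaptor share, recruits TRAF6, and leads to NF-κB activity and longer-lived messages for neutrophil chemoattractants and acute-phase proteins. In the lung this pathway is known for drawing neutrophils into the airspaces, and the title of the series is about IL-17-producing γδ T cells and neutrophils in radiation pneumonitis, the lung inflammation that follows irradiation.

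Aligned sequence per library, worked out from FPKM and coverage, ranged from 5.11 to 10.4 Gb, with irradiated 2 the deepest. Levels are FPKM, a value scaled for transcript length and library size, so that different genes can be set side by side. Across all genes, 25 of 13908 tested passed an adjusted p of 0.05 with limma (0.18%). That count moved to 0 without control 1 or control 3, to 1 without control 2, to 3 without irradiated 2, to 101 without irradiated 1 and to 118 without irradiated 3, while none of the 6 IL-17 family genes tested in these fits passed. Markers of lung epithelium were present in every library, with a summed level of 47538 to 60305 FPKM in the controls and 27092 to 36837 FPKM in the irradiated libraries over 10 genes. Irradiated 2 stood apart in its blood cell transcripts. Its summed red cell markers were 6251 FPKM against 1346 to 1707 FPKM in the other 5 libraries, and its summed neutrophil markers were the highest of the 6. The changes of Il17ra and Il17re and the subunit ratios are therefore also given without irradiated 2. Control 2 stood apart in markers of tissue carried along with lung. Its markers of heart, adipose tissue and thymus summed to 217 FPKM, against 9.99 to 97.3 FPKM in the other 5 libraries. Its mesothelial markers summed to 368 FPKM, against 107 to 226 FPKM in the others.

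In lung the receptor subunits other than Il17rb, the adaptor and Il17d were well detected, while Il17a, Il17c and Il17f were near the limit of detection. In the controls Il17rc (11.7 ± 0.453 FPKM, mean ± SD, n = 3), Il17ra (11.1 ± 0.676) and Il17re (9.60 ± 1.12) were highest, followed by Traf3ip2 (6.29 ± 0.764), Il17rd (5.99 ± 0.521) and Il17d (3.60 ± 0.519). Il17rb had a mean of 0.557 FPKM and Il17c of 0.169 FPKM, and Il17a and Il17f were listed at 0.0800 FPKM or below in every control. The ranges of Il17rc and Il17ra overlapped in the controls, as did those of Traf3ip2 and Il17rd and those of Il17a and Il17f, and the other neighbours in this order did not. Over all 6 libraries Il17ra lay above 69.7% of the 13908 genes tested, Il17rc above 59.0% and Il17re above 51.8%. The 5 receptor subunits together summed to 36.9 to 41.3 FPKM in the controls and 35.5 to 44.4 FPKM in the irradiated libraries, so their total overlapped between the groups.

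**Figure D1:**
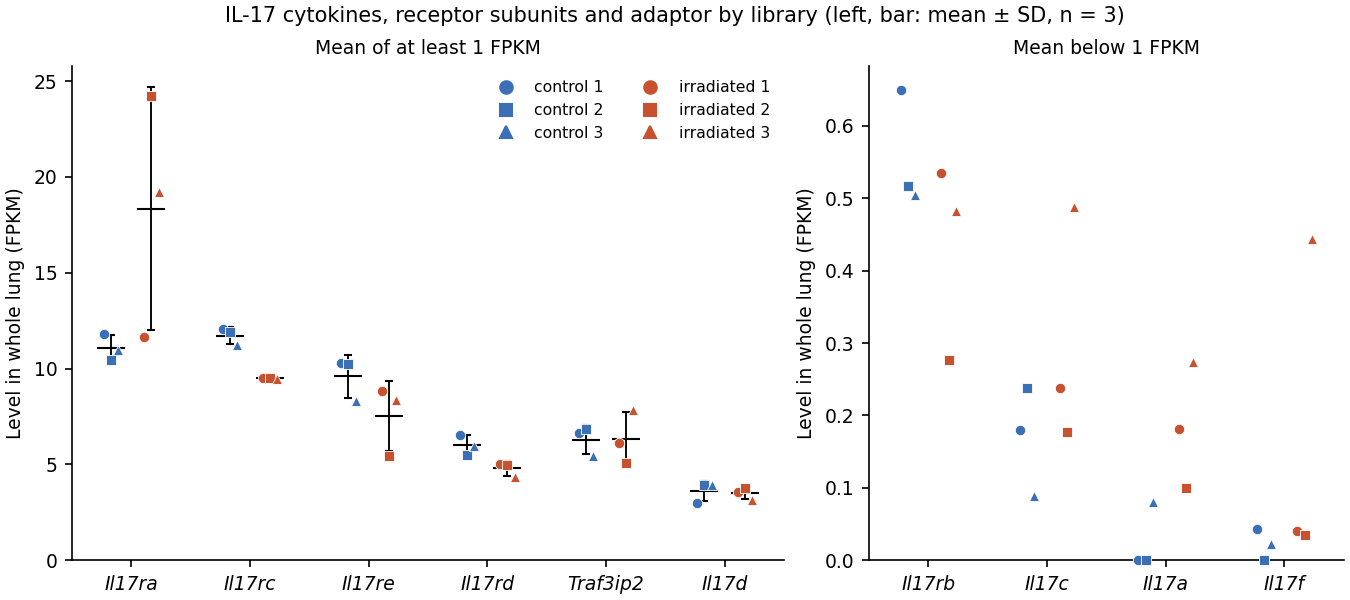
Level of each gene in FPKM (vertical axis) for the 3 control (blue) and 3 irradiated (red) libraries, with the mean ± SD of each group in the left panel and points alone in the right panel. Il17ra in irradiated 2 (24.2 FPKM) and irradiated 3 (19.2 FPKM) stands above all controls, the 3 irradiated values of Il17rc lie close together below the controls, and Il17a does not pass 0.273 FPKM in any library.

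After irradiation the order at the top changed: Il17ra (18.3 ± 6.34 FPKM) was above Il17rc (9.50 ± 0.0515 FPKM) in every irradiated library, with ranges that did not overlap. Of the 10 genes, 6 reached a mean of 1 FPKM and were tested, and none of these 6 was called with limma over all genes tested, against 0.18% of all genes. At an unadjusted p under 0.05, Il17ra was higher and Il17rc and Il17rd were lower, against 17.7% of all genes in either direction (7.41% higher and 10.3% lower). The groups did not overlap for 2 of the 6, Il17rc and Il17rd, both lower, against 14.6% of all genes that were lower without overlap. With 6 genes this share is not read as a result about the family. The median change of the 6 was -0.15 on the log2(FPKM + 1) scale, against -0.03 for all genes tested.

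**Figure D2:**
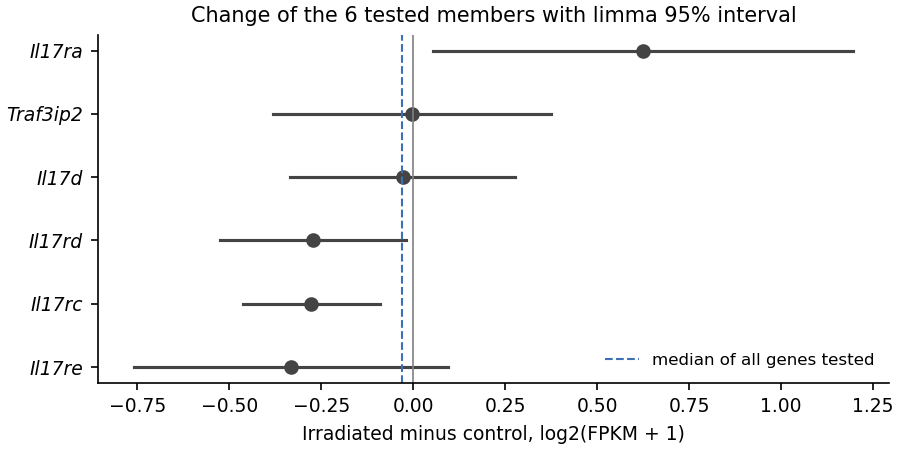
Difference between irradiated and control libraries on the log2(FPKM + 1) scale (horizontal axis) for the 6 tested genes, with the limma 95% interval as a line and the median of all genes as a dashed line. Il17ra lies to the right (0.62) with the widest interval, Il17re, Il17rc and Il17rd lie between -0.33 and -0.27, and Il17d and Traf3ip2 lie near 0.

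Il17ra encodes the shared signalling chain of the family and lies on chromosome 6, 120440143 to 120460692, on the plus strand of GRCm39. It was at 11.8, 10.4 and 11.0 FPKM across control libraries 1 to 3, against 11.6, 24.2 and 19.2 FPKM across irradiated libraries 1 to 3. Irradiated 2 and 3 were above every control, while irradiated 1 lay within the control range; after scaling to a common sum all 3 were above. The change was 0.62 ± 0.24 (SE, 95% interval 0.05 to 1.20) on the log2(FPKM + 1) scale and did not pass the limma test over all genes (adjusted p = 0.252). Without irradiated 2 it was 0.41, and without irradiated 1 it was 0.90 (limma adjusted p = 0.0521). Neutrophils carry much IL-17RA, and the summed level of 10 neutrophil markers was 171, 129 and 529 FPKM in control 1 to 3 and 252, 4824 and 1439 FPKM in irradiated 1 to 3. Both libraries with high Il17ra were the 2 with the highest neutrophil markers, and irradiated 1, with Il17ra in the control range, was the irradiated library with the lowest. Most of the sum in irradiated 2 and 3 is S100a8 (2029 and 510 FPKM) and S100a9 (1935 and 665 FPKM), which are also listed IL-17 targets. The median log2 difference of the 10 markers from the control mean was also highest in irradiated 2 (3.51) and irradiated 3 (2.35), against 0.48 in irradiated 1. Of these 10 markers, 1 had irradiated values all above the controls, against 9.91% of all genes, and none was at 0 in all libraries. Control 3 had the highest neutrophil markers of its group and the middle Il17ra value of its group. The part of neutrophil RNA in the level of Il17ra was not tested, and in whole tissue a change in the number of cells and a change in RNA per cell cannot be told apart.

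**Figure D3:**
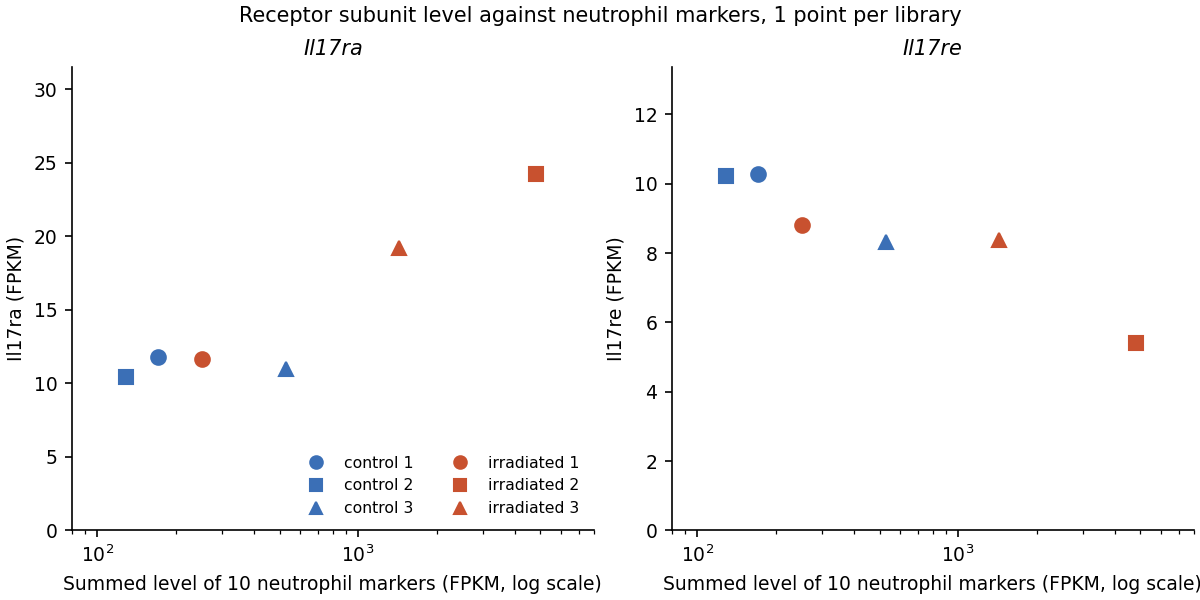
Level of Il17ra (left) and Il17re (right) in FPKM (vertical axes) against the summed level of 10 neutrophil markers (horizontal axes, log scale), with 1 point per library. Irradiated 2 and 3 have the highest summed markers, mostly S100a8 and S100a9, and the highest Il17ra, and irradiated 2 has the lowest Il17re (5.41 FPKM).

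Il17rc encodes the partner of IL-17RA for IL-17A and IL-17F and lies on chromosome 6, 113448416 to 113460124. It was at 12, 11.9 and 11.2 FPKM across control libraries 1 to 3, against 9.52, 9.53 and 9.44 FPKM across irradiated libraries 1 to 3. Every irradiated library was below every control, and the 3 irradiated values as listed differed by less than 0.1 FPKM. That closeness rested on the scaling: they were 9.36, 10.5 and 8.92 FPKM after median-ratio scaling, and 8.86, 9.26 and 8.76 FPKM from coverage. The change was -0.28 ± 0.08 (SE, 95% interval -0.46 to -0.09), a ratio of group means of 0.810, and had the smallest p of the 6 tested genes (limma adjusted p = 0.161 over all genes, rank 834 of 13908). Il17rc was lower without overlap under each of the 5 other scalings of the values as well, with changes of -0.26 to -0.16. Among the tested genes, those whose levels over the 6 libraries were most like those of Il17rc were Cst8 (Pearson r = 0.998), Zfp692 (r = 0.997) and Tmem28 (r = 0.995). Each is lower in the irradiated libraries, and 106 genes of the 13908 tested had an r over 0.95. With 6 libraries in 2 groups such a likeness is not read as a link between the genes.

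Il17re encodes the partner of IL-17RA for IL-17C, which is best known in epithelium, and is the upstream neighbour of Il17rc on the same strand (chromosome 6, 113435659 to 113447719, 696 bases before Il17rc). It was at 10.3, 10.2 and 8.31 FPKM across control libraries 1 to 3, against 8.80, 5.41 and 8.36 FPKM across irradiated libraries 1 to 3. The groups overlapped through control 3, and irradiated 2 was the lowest. After median-ratio scaling, and from coverage, all 3 irradiated values lay below the controls. The change was -0.33 ± 0.18 (SE, limma adjusted p = 0.382) and was -0.14 without irradiated 2. Summed epithelial markers were lower in all 3 irradiated libraries, but that sum is mostly Scgb1a1, a club cell gene, and Sftpc, a surfactant gene. These were the 2 of 9 tested epithelial markers that were lower without overlap, against 14.6% of all genes, and their part in the level of Il17re was not tested. In control 3 and irradiated 2 the unnamed assembled genes of the tables joined Il17re and Il17rc into 1 gene from 113435659 to 113460124, while in the other 4 libraries the assembled genes were separate. Reads that run from one gene into the other could be assigned to either.

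Il17rd, also known as Sef, encodes a receptor of the family that is known as a feedback inhibitor of FGF signalling and lies on chromosome 14, 26760921 to 26829243. It was at 6.53, 5.49 and 5.95 FPKM across control libraries 1 to 3, against 5.04, 4.97 and 4.35 FPKM across irradiated libraries 1 to 3. The irradiated libraries were all below the controls, with a change of -0.27 ± 0.11 (SE, limma adjusted p = 0.253). The groups overlapped after median-ratio scaling and after scaling to a common sum, so the separation of Il17rd rested on the scaling. From coverage, Il17rd was at 3.99, 3.36 and 3.63 FPKM across control libraries 1 to 3, against 3.16, 3.19 and 2.66 FPKM across irradiated libraries 1 to 3. These values are lower than listed. They overlap Il17d in the controls and lie below it in every irradiated library. Endothelial markers summed to 464 to 559 FPKM in the controls and 372 to 462 FPKM in the irradiated libraries, and 3 of 6 were lower without overlap, against 14.6% of all genes. Their part in the level of Il17rd was not tested.

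Il17rb encodes the subunit that binds IL-25, which drives type 2 responses in innate lymphoid cells, and lies on the minus strand of chromosome 14, 29718125 to 29730853. It was at 0.650, 0.517 and 0.505 FPKM across control libraries 1 to 3, against 0.535, 0.277 and 0.483 FPKM across irradiated libraries 1 to 3. Irradiated 1 lay within the control range, and the exact two-sided permutation p was 0.3 (adjusted p = 0.4 over the 4 genes below 1 FPKM). Genes of the type 2 response beside it were 5 tested of 10 listed, 0 called with limma (2 at an unadjusted p under 0.05), with a median change of -0.27. Tslp, an epithelial cytokine of that response, was at 2.98, 3.22 and 3.92 FPKM among controls against 2.17, 1.93 and 2.58 FPKM in the irradiated libraries, and did not pass (limma adjusted p = 0.192). Areg, an EGF receptor ligand, was at 2.51, 3.06 and 2.86 FPKM among controls against 12, 4.43 and 5.37 FPKM after irradiation (limma adjusted p = 0.188). Of 7 listed markers of type 2 innate lymphoid cells, which include Areg, 4 were tested and 0 were called with limma. Of these, 2 had positive and 2 had negative changes, with a median of -0.02. The 2 negative ones, Klrg1 (limma adjusted p = 0.425) and Gata3 (adjusted p = 0.519), overlapped between the groups. The summed level of all 7 was 11.53 to 12.40 FPKM in the controls and 13.04 to 21.73 FPKM in the irradiated libraries, without overlap. That difference was not tested.

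The adaptor Traf3ip2 lies on chromosome 10, 39488930 to 39531303, and was at 6.63, 6.82 and 5.41 FPKM across control libraries 1 to 3, against 6.10, 5.07 and 7.82 FPKM across irradiated libraries 1 to 3. Its groups overlapped fully, and the change was -0.00 ± 0.16 (SE, 95% interval -0.38 to 0.38, limma adjusted p = 0.993). A change within that interval is not excluded, and the interval is not the size at which a change would be called. On the opposite strand it overlaps E130307A14Rik, which was at 4.34, 4.68 and 3.24 FPKM among controls against 2.98, 3.36 and 5.81 FPKM in the irradiated libraries, and the end of Gm16364 (2.26 and 1.53 FPKM on average). In irradiated 3, both Traf3ip2 and E130307A14Rik were at their highest. Without a stated strand setting the reads of these genes cannot be told apart.

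The ratio between subunits of one receptor does not depend on how a library is scaled. Il17ra over Il17rc was 0.979, 0.877 and 0.980 in control 1 to 3, a nearly equal level, and 1.22, 2.54 and 2.03 in irradiated 1 to 3. All irradiated libraries were above all controls, including irradiated 1, in which Il17ra itself lay in the control range. The log2 ratio differed by 0.97 between the groups (exact two-sided permutation p = 0.1, the smallest that 3 against 3 libraries allow; adjusted p = 0.133 over 4 ratios), and by 0.74 without irradiated 2. Il17ra over Il17re was 1.15, 1.02 and 1.32 in the controls and 1.32, 4.48 and 2.29 in the irradiated libraries, with control 3 and irradiated 1 nearly equal (log2 difference 1.04, exact permutation p = 0.1). Without irradiated 2 that difference was 0.59.

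Il17ra over Il17rd was 1.80, 1.90 and 1.84 in the controls and 2.31, 4.88 and 4.42 in the irradiated libraries, which were all above the controls (log2 difference 0.99, exact permutation p = 0.1, and 0.79 without irradiated 2). Il17ra over Il17rb was 18.1, 20.2 and 21.7 in the controls and 21.7, 87.4 and 39.7 after irradiation, and here irradiated 1 fell just within the control range (log2 difference 1.08, exact permutation p = 0.2, and 0.56 without irradiated 2). All 4 ratios share Il17ra and are not independent. From coverage, Il17ra over Il17rd was 2.94 to 3.10 in the controls and 3.66 to 7.55 after irradiation, a higher level with a similar log2 difference (0.95).

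**Figure D4:**
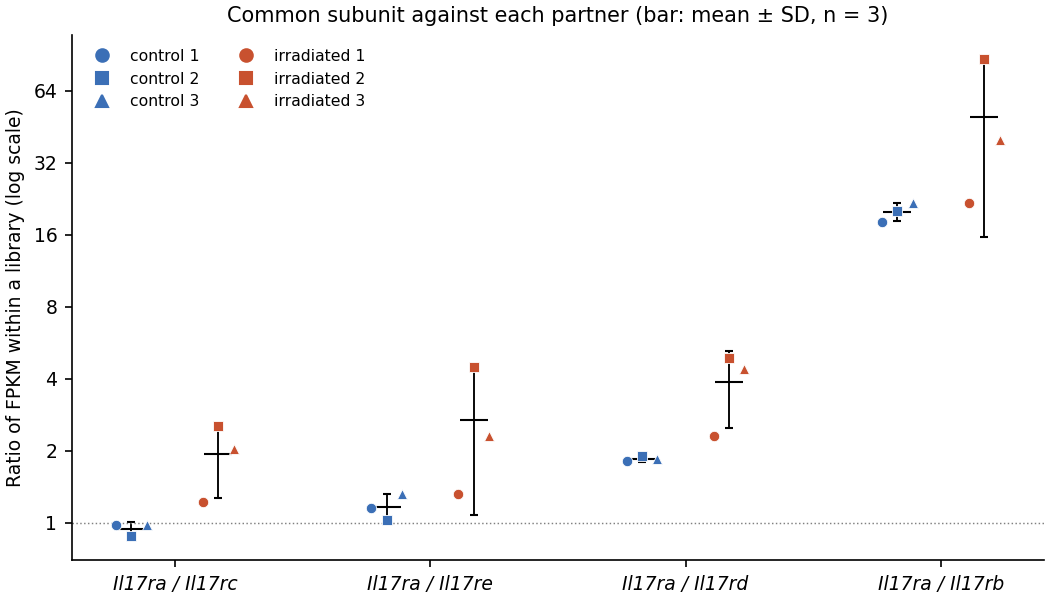
Ratio of the FPKM of Il17ra to that of each partner subunit within a library (vertical axis, log scale), with the mean ± SD of 3 libraries per group. Il17ra over Il17rc lies just below 1 in the 3 controls and from 1.22 to 2.54 in the 3 irradiated libraries.

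Il17a encodes the signature cytokine of type 17 lymphocytes and lies on chromosome 1, 20801129 to 20804720, 42649 bases from Il17f (chromosome 1, 20847370 to 20855498, minus strand). For Il17a the tables list 0, 0 and 0.0800 FPKM across control libraries 1 to 3, against 0.182, 0.10 and 0.273 FPKM across irradiated libraries 1 to 3. Every irradiated library was above every control, and the exact two-sided permutation p was 0.1, the smallest possible here (adjusted p = 0.4). In the unnamed assembled gene over Il17a the groups overlapped, with control 3 (0.203 FPKM) above irradiated 1 (0.182 FPKM). The depth behind these values was low: the deposited coverage of Il17a was 0, 0 and 0.471 reads per base in the controls and 1.06, 1.04 and 1.40 in the irradiated libraries. The deepest library, irradiated 2, had the lowest of the 3 irradiated values. Fitted without a filter on low values, the change of Il17a was 0.21 ± 0.07 (SE, limma adjusted p = 0.375), and a listed 0 at this depth does not show that the message was absent.

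Il17f, the close relative of Il17a, was listed at 0.0436, 0 and 0.0218 FPKM across control libraries 1 to 3, against 0.0408, 0.0353 and 0.444 FPKM across irradiated libraries 1 to 3. Only irradiated 3 stood above the controls, and the other 2 irradiated values lay within the control range (exact permutation p = 0.3). In irradiated 3 the deposited coverage of Il17f, multiplied by the ratio of FPKM to coverage of that library, gave 0.267 FPKM in place of the listed 0.444 FPKM, and that of Il17c gave 0.275 in place of 0.488 FPKM. In irradiated 1, coverage gave 0.156 FPKM for Il17c in place of the listed 0.238 FPKM. Irradiated 3 was the highest library for Il17a, Il17c and Il17f alike.

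Il17c, a cytokine made by epithelium, lies on chromosome 8, 123147912 to 123150820. It was at 0.180, 0.238 and 0.0887 FPKM across control libraries 1 to 3, against 0.238, 0.177 and 0.488 FPKM across irradiated libraries 1 to 3. The groups overlapped, with irradiated 3 the highest (exact permutation p = 0.4). Il17d, a family member made outside T cells, was the 1 cytokine with a mean above 1 FPKM (chromosome 14, 57762286 to 57780623). As listed, Il17d lay below Il17ra, Il17rc, Il17re and Il17rd and above Il17rb in both groups. It was at 3.00, 3.90 and 3.90 FPKM across control libraries 1 to 3, against 3.58, 3.76 and 3.15 FPKM across irradiated libraries 1 to 3. These groups overlapped fully, with a change of -0.03 ± 0.13 (SE, 95% interval -0.34 to 0.28, limma adjusted p = 0.932). The unnamed assembled gene over Il17d, not used in the comparisons, was lower in every irradiated library than in every control (values in the flagged results).

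Il25, the ligand of IL-17RB, was listed at 0.0449 FPKM in control 1, 0.0563 FPKM in irradiated 3 and 0 in the other 4 libraries. Il17b, which also binds IL-17RB, was listed at 0.00117, 0.172 and 0 FPKM across control libraries 1 to 3, against 0.0222, 0.0350 and 0.0188 FPKM across irradiated libraries 1 to 3. Neither ligand of IL-17RB reached 0.2 FPKM in any library.

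Set against Il17a, Il17c and Il17f together, the receptors had 185, 162 and 194 times the summed FPKM in control 1 to 3 and 77.1, 142 and 34.7 times in irradiated 1 to 3. All irradiated ratios were below the controls. The sum of the 3 cytokines was 0.223, 0.238 and 0.191 FPKM among controls against 0.461, 0.313 and 1.21 FPKM after irradiation, while the receptor sum overlapped between the groups. The ratio therefore moved with the cytokines, whose levels rest on a coverage of 0 to 1.84 reads per base. For Il17c in irradiated 1 and 3 and Il17f in irradiated 3, coverage gave lower values than those listed and summed here.

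The start sites of the barely detected Il17a and Il17f and of the well detected Il17rc and Il17re are shown side by side. Whether motifs follow the level of the genes was not tested. The windows of 300 bases, 250 before and 50 after the annotated start, are from RefSeq on GRCm38.p6, a build other than that of the deposited tables, and were matched by symbol for 8 of the 10 genes (not Il17ra and Traf3ip2). They are written 5′ to 3′ on the strand of the gene, and capitals mark AGGTCA (a core motif of nuclear receptors), TATAAA (the TATA box) and GGGCGG (the GC box), each searched on both strands. No match of one motif overlapped a match of another.
Il17a: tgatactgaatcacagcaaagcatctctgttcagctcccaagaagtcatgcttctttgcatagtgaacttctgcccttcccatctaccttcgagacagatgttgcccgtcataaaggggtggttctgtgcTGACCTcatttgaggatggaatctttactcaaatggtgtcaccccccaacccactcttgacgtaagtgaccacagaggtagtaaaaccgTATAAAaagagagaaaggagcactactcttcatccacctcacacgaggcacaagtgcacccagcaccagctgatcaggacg
Il17f: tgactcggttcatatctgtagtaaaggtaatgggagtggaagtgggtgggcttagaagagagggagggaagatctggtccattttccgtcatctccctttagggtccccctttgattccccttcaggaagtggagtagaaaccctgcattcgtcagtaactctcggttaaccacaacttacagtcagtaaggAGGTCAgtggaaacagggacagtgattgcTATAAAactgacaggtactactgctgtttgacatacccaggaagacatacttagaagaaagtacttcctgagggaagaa
Il17rc: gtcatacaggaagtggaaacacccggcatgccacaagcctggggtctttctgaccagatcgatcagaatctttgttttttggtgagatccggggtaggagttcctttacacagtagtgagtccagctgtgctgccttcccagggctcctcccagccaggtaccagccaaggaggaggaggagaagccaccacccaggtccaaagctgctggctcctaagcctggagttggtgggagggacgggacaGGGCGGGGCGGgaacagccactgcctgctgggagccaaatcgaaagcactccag
Il17re: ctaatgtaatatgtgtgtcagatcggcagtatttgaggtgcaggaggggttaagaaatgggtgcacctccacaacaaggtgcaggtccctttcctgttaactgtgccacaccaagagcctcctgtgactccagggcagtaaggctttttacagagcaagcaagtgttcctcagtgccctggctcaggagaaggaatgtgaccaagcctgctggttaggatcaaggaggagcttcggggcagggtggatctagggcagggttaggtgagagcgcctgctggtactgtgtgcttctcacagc

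These windows lie at chr1:20730655-20730954 (plus strand, Il17a), chr1:20784221-20784520 (minus strand, Il17f), chr6:113471205-113471504 (plus strand, Il17rc) and chr6:113458521-113458820 (plus strand, Il17re). Both Il17a and Il17f hold 1 TATAAA, at positions -31 and -29 where -1 is the last base before the start, and 1 AGGTCA, at position -120 in Il17a on the opposite strand and -58 in Il17f. Il17rc holds 2 copies of GGGCGG that share 1 base at the start site, and neither of the other 2 motifs. Il17re holds none of the 3. Of the other 4 windows, Il17rd holds 3 and Il17rb 1 copy of GGGCGG, Il17c holds 1 TATAAA far from the start (position -248), and Il17d holds none. Over all 32851 windows of the table, 16.3% hold AGGTCA, 13.6% hold TATAAA and 35.7% hold GGGCGG. A match is a run of letters and was not tested as a binding site.

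Downstream of the receptors, no gene of the signalling list was called, while 3 of the target genes rose. The list of receptor signalling genes had 20 of 20 members tested, 0 called with limma (5 at an unadjusted p under 0.05), 13 with positive changes and a median of 0.10, against -0.03 for all genes. Traf5, a TRAF adaptor that Act1 recruits for message stability, was at 9.36, 8.52 and 8.78 FPKM across control libraries 1 to 3, against 6.32, 6.82 and 7.22 FPKM across irradiated libraries 1 to 3, below every control (limma adjusted p = 0.142). Ikbkg, the regulatory subunit of the IκB kinase, was at 8.31, 7.76 and 6.95 FPKM among controls against 9.56, 9.97 and 10.2 FPKM after irradiation (limma adjusted p = 0.161). Nfkbiz, an IκB family cofactor through which IL-17 targets are transcribed, was at 8.16, 6.69 and 9.56 FPKM among controls against 10.0, 11.8 and 18.7 FPKM in the irradiated libraries (limma adjusted p = 0.232). Arid5a, which stabilises messages of the pathway, overlapped between the groups (limma adjusted p = 0.217), as did the NF-κB subunits Nfkb1 (adjusted p = 0.527) and Rela (adjusted p = 0.601).

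The brakes on the pathway had 9 of 9 members tested, 0 called with limma (2 at an unadjusted p under 0.05), 7 with positive changes and a median of 0.14. In 4 of the 9 the irradiated libraries were all above the controls, against 9.91% of all genes. Tnfaip3, the A20 deubiquitinase, was at 4.87, 4.45 and 6.04 FPKM among controls against 7.20, 6.12 and 9.02 FPKM in the irradiated libraries (limma adjusted p = 0.216). Tnip1, which works with A20, was at 10.2, 10.8 and 9.73 FPKM among controls against 13.1, 11.3 and 12 FPKM after irradiation (limma adjusted p = 0.270). Zc3h12a, the RNase Regnase-1 that degrades IL-17 target messages, was at 4.30, 3.63 and 3.64 FPKM among controls against 4.40, 5.11 and 8.46 FPKM in the irradiated libraries (limma adjusted p = 0.294). Btrc and Cyld, of the ubiquitin system, overlapped between the groups (limma adjusted p = 0.549 and 0.960).

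The list of IL-17 target genes had 20 of 30 members tested, 3 called higher against 0.0647% of all genes, 0 called lower, and a median change of 0.79. The 3 were Saa3, Lcn2 and Steap4, which other inflammatory signals also induce, and they were known from earlier results of these data when the list was made. Saa3, an acute-phase amyloid, rose from 0.890, 2.04 and 0.996 FPKM in control 1 to 3 to 30.1, 17.8 and 11.7 FPKM in irradiated 1 to 3 (limma adjusted p = 0.0452). Lcn2, a siderophore-binding protein, rose from 70.0, 107 and 77.0 FPKM to 452, 302 and 366 FPKM (limma adjusted p = 0.0298). Steap4, a metalloreductase, rose from 3.67, 5.56 and 3.88 FPKM to 17.9, 23.3 and 22.0 FPKM (limma adjusted p = 0.0298). These calls depended on the libraries used: without control 1 or control 3 all 3 genes lost the call (limma adjusted p = 0.104 to 0.203), without irradiated 2 likewise (0.0649 to 0.0951), and without control 2 Lcn2 (0.0683) and Saa3 (0.121) lost it. All 3 kept it without irradiated 1 or irradiated 3 (limma adjusted p = 0.0324 to 0.0435). Saa3 also lost the call after median-ratio scaling (0.0588), after scaling to a common sum (0.0504), from coverage (0.0518) and with a minimum mean of 0.1 FPKM (0.0525), and all 3 lost it with no filter (0.149 to 0.184).

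Saa3 and Lcn2 did not follow the order of Il17ra over the irradiated libraries, while Steap4 did. Irradiated 1, in which Il17ra and the neutrophil markers were lowest of the irradiated libraries, had the highest Saa3 and Lcn2 of all 6 libraries. An order over so few libraries was not tested and is not read as a link between the genes. Ccl20, a ligand of the CCR6 receptor of type 17 cells, was at 0.200, 0.282 and 0.0969 FPKM among controls against 1.24, 0.623 and 4.47 FPKM after irradiation, highest in irradiated 3 as were Il17a, Il17c and Il17f (limma adjusted p = 0.229). Lif, an IL-6 family cytokine, was at 0.650, 0.960 and 0.967 FPKM among controls against 2.36, 1.55 and 1.51 FPKM in the irradiated libraries (limma adjusted p = 0.165). Ptgs2, the inducible cyclooxygenase, overlapped between the groups (adjusted p = 0.295 with limma).

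Among the listed targets that went the other way, Csf2, the gene of the growth factor GM-CSF, was at 1.86, 2.20 and 1.37 FPKM among controls against 1.27, 0.962 and 1.34 FPKM in the irradiated libraries (limma adjusted p = 0.313). Tnf was at 0.876, 0.693 and 3.20 FPKM among controls against 0.434, 0.613 and 0.604 FPKM after irradiation (limma adjusted p = 0.395), and Mmp3, a matrix protease, overlapped between the groups (adjusted p = 0.501 with limma). The targets S100a8 and S100a9 are also on the list of neutrophil markers. S100a8 was at 59.3, 27.2 and 199 FPKM among controls against 75.0, 2029 and 510 FPKM in the irradiated libraries, again highest in irradiated 2, and overlapped between the groups (limma adjusted p = 0.385).

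**Figure D5:**
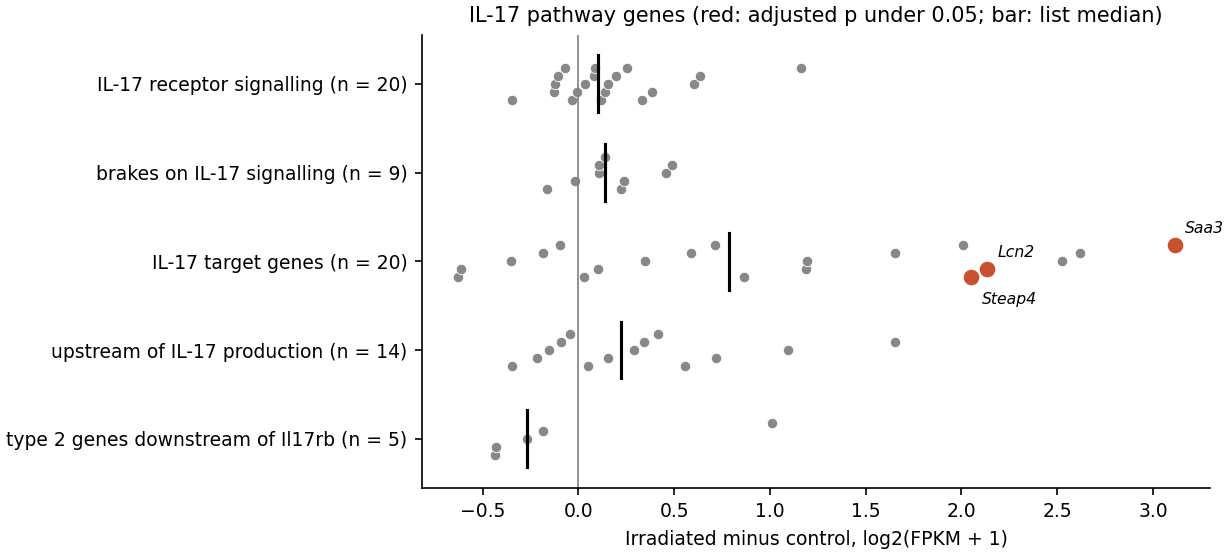
Difference between irradiated and control libraries on the log2(FPKM + 1) scale (horizontal axis) for each tested gene of the 5 pathway lists, with list medians as bars and called genes in red. Saa3, Lcn2 and Steap4 are the 3 called genes, and the medians run from -0.27 for the type 2 list to 0.79 for the targets.

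Upstream of the cytokines, 14 of 21 listed genes were tested and 0 were called with limma (5 at an unadjusted p under 0.05), with a median change of 0.22. Il6ra, the IL-6 receptor chain through which type 17 differentiation is driven and which neutrophils also carry, came nearest to the threshold, and passed it without irradiated 1 (adjusted p = 0.0443 with limma). It was at 9.70, 7.64 and 8.46 FPKM across control libraries 1 to 3, against 15.8, 24.0 and 19.3 FPKM across irradiated libraries 1 to 3. Every irradiated value was above every control (limma adjusted p = 0.0615). Stat3, which acts below that receptor, was at 40.7, 38.7 and 37.1 FPKM among controls against 51.4, 52.0 and 45.4 FPKM after irradiation (limma adjusted p = 0.144). Batf, a factor of the type 17 programme, was at 3.57, 4.02 and 3.25 FPKM among controls against 5.22, 5.49 and 4.74 FPKM in the irradiated libraries (limma adjusted p = 0.148).

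Ahr, the aryl hydrocarbon receptor, was at 16.8, 14.5 and 14.0 FPKM among controls against 11.5, 10.6 and 12.7 FPKM after irradiation, below every control (limma adjusted p = 0.182). Il7, a survival cytokine of γδ T cells, was at 1.45, 1.18 and 1.25 FPKM among controls against 1.06, 0.808 and 1.06 FPKM in the irradiated libraries (limma adjusted p = 0.447), and Il6st overlapped between the groups (adjusted p = 0.552 with limma). Of the 10 tested γδ17 T cell markers, 0 were called with limma (4 at an unadjusted p under 0.05), 7 were positive and 3 negative, and 5 lay above every control in all irradiated libraries, against 9.91% of all genes. The summed level of all 12 was 52.6 to 77.6 FPKM in the controls and 66.7 to 82.3 FPKM in the irradiated libraries.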

How the data were processed

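Whole lung RNA-seq tables of 6 libraries, 3 control and 3 irradiated, were used. FPKM values, scaled for transcript length and library size, were deposited by the authors, per the file headers. Coverage, the mean depth per base and a signal value, was deposited by the authors in the same tables and gave the depth behind low values. The submitters' processing notes name, with no role, STAR 2.7.6a, DESeq2, fastp and, as build, GRCm39. The annotation and strand setting were "not given in the sources used here". The coordinates are those of the deposited tables.

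Rows with a gene name were kept, and FPKM was summed per gene ID. The 13908 genes averaging 1 FPKM or more were tested on log2(FPKM + 1) with limma 3.58.1 in R 4.3.3, using trended and robust variances, group as the only term and Benjamini-Hochberg adjustment, and an adjusted p under 0.05 was called. Changes are irradiated minus control on that scale, which understates changes of low genes. The members below the filter and the subunit ratios were tested with exact two-sided permutation tests over libraries, where 0.1 is the smallest possible p. The test was tested on simulated data. Alternatives were other filters, pseudocounts, scalings and variance settings, the replicate number as a block and each library left out. FPKM rebuilt from coverage, also for the ratios, and the fit without control 2 and irradiated 2, were chosen after seeing the data.

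The members and lists were chosen with earlier results of these data known. Named genes are the 10 members, Il17b and Il25, the called genes of each list, up to 3 further list genes per direction with the smallest p, genes that overlap a member, and the 3 genes most like the tested member with the smallest p. S100a8, Scgb1a1 and Sftpc were named after their values were seen. The promoter windows were read from RefSeq tables and searched for exact motif letters.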

Additional observations from a re-analysis of the deposited data

Results flagged for a closer look

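The tables also hold assembled genes without a name, which the comparisons did not use. Over Il17a such a gene was at 0.203 FPKM in control 3 while irradiated 1 to 3 had 0.182, 0.216 and 0.448 FPKM. The highest of these lies above the highest control, but irradiated 1 lies below control 3, so the groups overlap. Over Il17c an assembled gene was listed in irradiated 1 (0.135 FPKM) and irradiated 3 (0.346 FPKM) and in no control. Over Il17f one was listed in irradiated 1 (0.222 FPKM) and irradiated 3 (0.444 FPKM) and in no control. Over Il17d one went the other way, at 4.90, 5.38 and 5.12 FPKM in control 1 to 3. In irradiated 1 to 3 it was at 4.07, 4.35 and 3.25 FPKM, below every control, while the named Il17d overlapped between the groups. These assemblies may hold the same reads as the named genes and are not independent of them, and the difference between the groups was not tested.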

How the results depend on the processing

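None of the family's genes tested was called with limma under any alternative: 10 were tested with no filter, 9 with a minimum mean of 0.1 FPKM, 5 with one of 5 FPKM and 6 otherwise. Il17ra stayed positive (0.37 to 0.90), and Il17rc (-0.31 to -0.16), Il17rd (-0.35 to -0.16) and Il17re (-0.45 to -0.10) stayed negative, in 20 of 20 alternatives each. The 25 genes called over all became 0 with no filter (3531 at an unadjusted p under 0.05), 13 with a minimum mean of 0.1 FPKM, 38 with one of 5 FPKM, 11 after median-ratio scaling, 13 after scaling to a common sum, 9 without control 2 and irradiated 2, and 0 to 118 with 1 library left out. Scaling to a common sum raised the median of all genes by 0.11 and turned the split from 9 higher and 16 lower to 7 and 6. Values near 0 changed sign. Traf3ip2 was 0.016 after median-ratio, 0.011 after upper-quartile and 0.11 after common-sum scaling, 0.011 without the 20 most abundant genes, 1.05e-05 from coverage, 0.18 without control 2 and irradiated 2, and -0.15 to 0.12 with 1 library left out. Il17d was 0.073 after common-sum scaling and -0.13 to 0.028 with 1 library left out. Cyld was 0.0050 after median-ratio and 0.098 after common-sum scaling, 0.0097 from coverage, 0.0064 without control 2 and irradiated 2, and -0.12 to 0.063 with 1 library left out, and Rela was 0.019 after common-sum scaling. The cause of these changes was not tested.

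With the replicate number as a block, 0 genes were called (1623 at an unadjusted p under 0.05). Deviations of libraries with the same number had correlations of -0.17, -0.54 and -0.28, against -0.28 to 0.52 for libraries with different numbers. Deviations from a mean of 3 libraries are tied to one another, so these values cannot show whether the numbers pair the samples. DESeq2 was not run, since no counts were used. Depth limits Il17a, Il17c and Il17f, whose coverage was at most 1.84 reads per base.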
